A study of Mus musculus with 3 samples.

Results

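Capillary endothelial cells line the smallest vessels of the fat pad and are described here in the stromal vascular fraction (SVF) of inguinal white fat, the cells left after collagenase digestion and removal of adipocytes. A capillary cell was taken as a barcode with at least 2 UMIs of Gpihbp1, at least 2 UMIs of Pecam1 and Cdh5 together, no UMI of Pdgfra or Epcam and at most 1 UMI of Myh11, among barcodes with at least 1000 UMIs and at most 10% mitochondrial UMIs. A UMI, or unique molecular identifier, marks 1 captured RNA molecule. By this rule 1186 of 33663 barcodes were capillary cells. They were compared with 364 other endothelial barcodes, called Plvap cells here, which passed the same gates with at least 2 UMIs of Plvap, a protein of the diaphragms of fenestrated and post-capillary endothelium, and at most 1 UMI of Gpihbp1.

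Gpihbp1 encodes a lipid-anchored protein of capillary endothelium that binds lipoprotein lipase and carries it from the tissue side to the vessel lumen. There the lipase frees fatty acids from triglyceride-rich lipoproteins. Cd36 takes part in the uptake of these fatty acids, the binding proteins Fabp4 and Fabp5 hold them inside the cell, and Pparg, a fatty acid-responsive nuclear receptor, is known to drive Fabp4 and Cd36 in endothelium as in adipocytes.

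The wild-type library was made from 12 pooled mice, the Mgp-KO library from 13 mice with a global deletion of Mgp, and the Pd-KO library from 11 mice with floxed Mgp deleted by Cre under the Pdgfra promoter. Mgp encodes matrix Gla protein, a secreted inhibitor of bone morphogenetic proteins. All mice were 4 weeks old, both sexes were pooled, and all cells were sorted as CD45-negative and DAPI-negative, which removes leukocytes and dead cells. Each genotype had 1 library, so no test between genotypes was possible, every interval is a 95% interval for counting error only, and genotype and library cannot be told apart. The wild-type mice were the only controls used here, and whether they carried the floxed allele is not stated in the labels.

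The promoters of genes high in the capillary cells are shown first, since these genes were high together. They are the 250 bases upstream of the start in RefSeq on GRCm38.p6, read 5′ to 3′ on the strand of the gene. Aqp7 and Timp4 were among the 10 genes with the highest ratio to the Plvap cells, and Rbp7 is a marker of the label. Capitals mark the nuclear receptor motif AGGTCA or its reverse complement TGACCT in Aqp7, and the ETS core AGGAAG or its reverse complement CTTCCT in Timp4 and Rbp7.
Aqp7 (GRCm38.p6, chr4:41047963-41048212, minus strand): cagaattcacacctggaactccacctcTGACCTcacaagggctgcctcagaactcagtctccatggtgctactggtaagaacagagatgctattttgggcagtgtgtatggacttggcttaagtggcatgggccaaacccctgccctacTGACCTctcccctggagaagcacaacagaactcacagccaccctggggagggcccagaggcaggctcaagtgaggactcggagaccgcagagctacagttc
Timp4 (GRCm38.p6, chr6:115252206-115252455, minus strand): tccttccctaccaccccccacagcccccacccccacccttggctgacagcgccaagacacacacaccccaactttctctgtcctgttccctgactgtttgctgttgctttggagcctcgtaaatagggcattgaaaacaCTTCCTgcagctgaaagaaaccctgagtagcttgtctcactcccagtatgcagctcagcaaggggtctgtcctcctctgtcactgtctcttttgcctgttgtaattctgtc
Rbp7 (GRCm38.p6, chr4:149454969-149455218, minus strand): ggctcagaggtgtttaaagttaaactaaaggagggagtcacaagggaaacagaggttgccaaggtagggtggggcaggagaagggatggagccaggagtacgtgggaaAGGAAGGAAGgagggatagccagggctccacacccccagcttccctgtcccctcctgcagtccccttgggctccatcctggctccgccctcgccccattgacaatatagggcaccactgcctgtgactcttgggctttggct
The windows of Car4, the gene with the highest ratio, and of Cldn5, a marker of the label, held neither motif and are not shown. The Aqp7 window is that of its second listed start and held 2 nuclear receptor motifs, where that of its first start held 1, the Timp4 window held 1 ETS core, and the Rbp7 window held 2 ETS cores that overlap. On either strand, the nuclear receptor motif was found in 4260 of 27025 genes (15.8%), in 4 of the 9 highest genes with a listed promoter (Aqp7, Chchd10, Pparg and Tmem182) and in none of the 9 lowest. The ETS core was found in 8734 genes (32.3%), in 3 of the 9 highest and in 6 of the 9 lowest. These matches are a description of letters in the window and were not tested.

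The capillary cells were 427 of 11350 barcodes in the wild-type library (3.76%, exact binomial interval 3.42 to 4.13), 219 of 13086 in the Mgp-KO library (1.67%, 1.46 to 1.91) and 540 of 9227 in the Pd-KO library (5.85%, 5.38 to 6.35). The share was lowest in the Mgp-KO and highest in the Pd-KO library. The sort on CD45 and the pooling of mice can set these shares. No interval covers mouse-to-mouse spread.

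Of the barcodes with at least 2 UMIs of Gpihbp1 (wild-type 693, Mgp-KO 312, Pd-KO 685), 102, 43 and 27 were lost for too few UMIs of Pecam1 and Cdh5. A further 133, 45 and 110 held a Pdgfra UMI, and 31, 5 and 8 held Epcam or Myh11. Capillary cells were 70.5% (66.7 to 74.1) of capillary and Plvap cells together in the wild-type library, 78.8% (73.5 to 83.4) in the Mgp-KO library and 81.1% (77.9 to 84) in the Pd-KO library. The wild-type share was the lowest. After every barcode was thinned to 2000 UMIs the shares were 58.9%, 71.8% and 65.8%, so the order of the knockout libraries was not kept.

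The capillary cells held 3005898, 712017 and 2258177 UMIs (wild-type, Mgp-KO, Pd-KO), with a median of 5848, 2769 and 3475 UMIs and 2191, 1404 and 1759 genes a cell. The wild-type cells were the deepest, and every level below is therefore given as CPM, the UMIs of a gene in the summed cells of a library scaled to 1000000 UMIs of those cells. Gpihbp1 itself, which chose the cells, had a median of 9, 7 and 7 UMIs. At the threshold, the 47, 17 and 66 capillary cells with exactly 2 Gpihbp1 UMIs held 17572, 19930 and 17954 CPM of Fabp4, and the 76, 27 and 74 endothelial cells just outside it with exactly 1 UMI held 12415, 17899 and 15962 CPM. Cd36 was at 1939, 1932 and 2727 CPM just inside and 1096, 1483 and 2692 CPM just outside. In the knockout libraries the values on both sides of the threshold lay closer together than in wild-type.

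Mgp, the deleted gene, was read first as a check of the labels. In the wild-type library Mgp was at 109 CPM (Poisson interval 97.6 to 122) from 328 UMIs in 97 of the 427 capillary cells, and the 5 cells with the most held 62.5% of them. In the Mgp-KO library it was at 0 of 712017 UMIs, which allows up to 4.21 CPM and puts it at least 25.9-fold below wild-type. In the Pd-KO library it was at 3.1 CPM, 7 UMIs in 5 cells, a log2 ratio to wild-type of -5.04 (-6.46 to -4.08). The Plvap cells held 1380, 0 and 193 CPM, so in both endothelial groups the Pd-KO level was far below that of wild-type. Cre in these mice is driven by the Pdgfra promoter, and the reason for the low Pd-KO level in endothelial cells was not tested. Free RNA in the wild-type barcodes of 10 to 100 UMIs held 359 CPM of Mgp, above the level in capillary cells and below that in Plvap cells. In Pd-KO it held 6.28 CPM, again above capillary and below Plvap cells. With this free RNA taken off, the Pd-KO ratio of capillary cells was -3.04.

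The cells carried the markers of the label. Car4, a carbonic anhydrase on the capillary surface, was at 232 CPM (215 to 250) in wild-type, 291 (252 to 333) in Mgp-KO and 406 (380 to 433) in Pd-KO capillary cells, against 3.98, 22.8 and 8.64 CPM in the Plvap cells. Timp4, an inhibitor of metalloproteinases, was at 465, 541 and 297 CPM against 77.2, 34.2 and 20.7. Rbp7, a retinol-binding protein of the fatty acid-binding protein family, was at 2525, 3241 and 1329 CPM against 216, 462 and 389. For these 3 genes the intervals of capillary and Plvap cells did not overlap in any library. Cldn5, a tight junction protein, was at 829, 517 and 866 CPM against 579, 194 and 237, the narrowest gap of the markers in wild-type (log2 ratio 0.52). Pecam1, found on all endothelium, was at 926, 1112 and 1272 CPM in capillary cells and at 887, 1301 and 1494 CPM in Plvap cells.

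**Figure D1:**
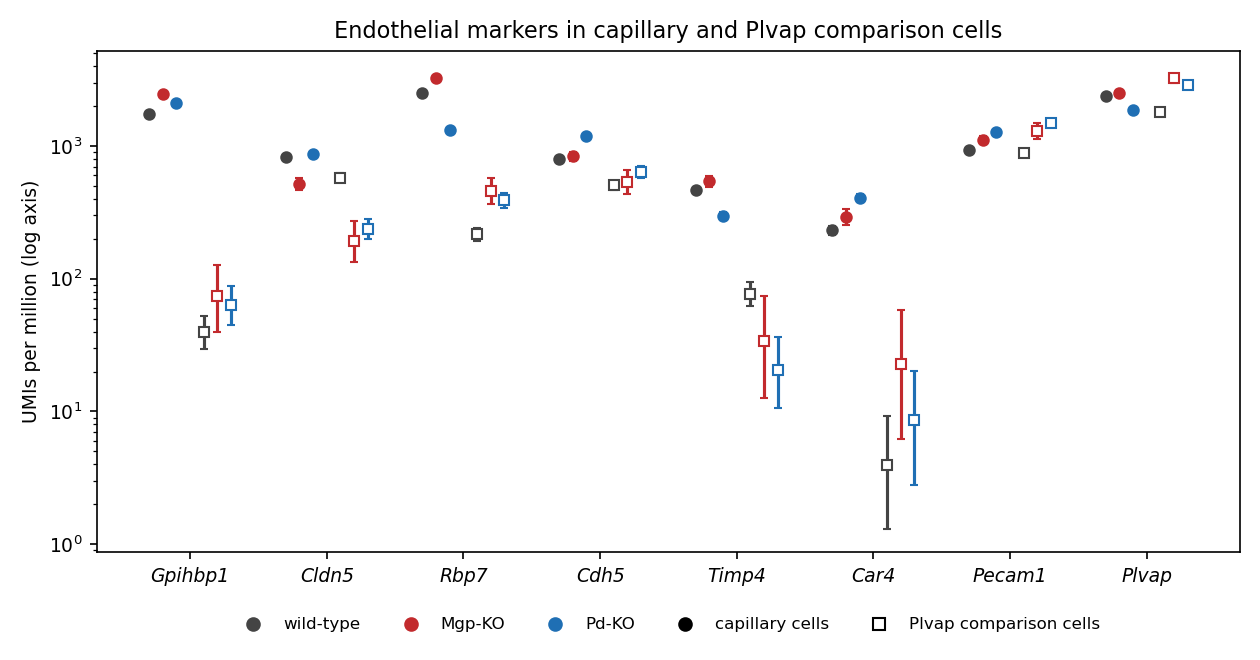
Level of the markers of the rule and the label, in CPM on a log axis, in the capillary cells (filled circles) and the Plvap cells (open squares) of each library, with exact Poisson 95% intervals for counting error. Rbp7, Timp4 and Car4 lie far higher in capillary cells in every library. Gpihbp1 does so too, but the rule that chose the cells sets this gap. Pecam1 and Plvap, which are also genes of the rule, lie close together.

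Cells were chosen by Gpihbp1 and Plvap, so the differences between capillary and Plvap cells are a description with no test. Of 7953 genes with at least 100 UMIs in the cells compared, 84 (1.06%) were more than 2-fold higher in capillary cells in all 3 libraries and 179 (2.25%) more than 2-fold lower. In single libraries these shares were 4.98% and 5.07% in wild-type, 9.64% and 10.5% in Mgp-KO, and 3.47% and 5.67% in Pd-KO. The gene with the highest weakest ratio was Car4 (log2 5.73, 3.50 and 5.42 in wild-type, Mgp-KO and Pd-KO). Aqp7, a channel for glycerol, followed with 151, 222 and 274 CPM in capillary cells against 7.16, 11.4 and 24.2. Pparg was at 180 CPM (165 to 195), 451 (403 to 503) and 503 (474 to 533) against 27.9, 51.4 and 96.7, in log2 2.67, 3.06 and 2.37. The remaining genes of the 10 highest were Timp4, the membrane protein Tmem182, the mitochondrial protein Chchd10, the potassium channel Kcna5, the butyrophilin-like Btnl9, the actin-binding Ablim3 and Cfd, the adipocyte-secreted complement factor. In Mgp-KO, 5 cells held 61.7% of the Cfd UMIs.

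Of 21 lipid handling genes measured, 8 were more than 2-fold higher in capillary cells in all 3 libraries and none was lower, where 1.06% of all genes were higher, with medians of log2 0.81, 1.06 and 0.84, beside 0.05, -0.07 and -0.03 for all genes. Of the adipocyte markers, both that were measured, Cfd and Car3, were also higher in all 3 libraries, with medians of 2.36, 4.60 and 4.97, and their part was not tested. Fabp4 was at 30899, 47090 and 39100 CPM in wild-type, Mgp-KO and Pd-KO capillary cells against 10248, 16571 and 13382 CPM in Plvap cells. It was about the same fold higher in each library (log2 1.59, 1.51 and 1.55). Cd36 was at 2656, 3416 and 3683 CPM against 635, 879 and 1432, and Fabp5 at 1765, 2854 and 2917 against 759, 1295 and 886. Angptl4, a secreted inhibitor of lipoprotein lipase, was at 398, 452 and 345 CPM against 116, 97 and 82.9. Cav1, the caveolin of endothelial caveolae, was at 1194, 1232 and 1563 against 467, 588 and 674 CPM. The transcription factor Tcf15 was at 212, 229 and 402 CPM against 47.8, 28.5 and 50.1. Its partner Meox2 was at nearly the same level in both, with 114, 103 and 174 CPM against 114, 108 and 150. Lpl, the lipase itself, was at 379, 265 and 200 CPM, below the 2052 CPM in the wild-type free RNA of barcodes of 500 to 700 UMIs.

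Venous and lymphatic genes marked the other side. In the venous list 9 of 14 genes were more than 2-fold lower in the capillary cells in all 3 libraries, where 2.25% of all genes were, with medians of -1.71, -2.23 and -1.79. Vwf, the clotting factor stored by endothelium, was at 77.2, 40.7 and 65.5 CPM against 472, 679 and 520. Selp, P-selectin, was at 50.2, 19.7 and 27.5 against 283, 907 and 168, and Ackr1, the chemokine receptor of venules, at 56.2, 23.9 and 25.2 against 316, 633 and 339. Glycam1, the L-selectin ligand of high endothelial venules, was at 120, 0 and 3.54 CPM against 25912, 1672 and 10298, so in Mgp-KO it was at least 397-fold lower in capillary cells. Fut7, a fucosyltransferase needed for selectin ligands, and Ccl21a, a chemokine of lymphatics and high endothelial venules, were also among the 10 lowest genes. Cytl1, a cytokine-like protein, was at 0.998, 0 and 0 CPM against 236, 371 and 147. No fold is read from Cytl1 or Fut7, since the Plvap cells, where they were high, brought them past the minimum.

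The lymphatic list (4 of 5 genes lower, none higher, beside 2.25% of all genes lower) partly described the comparison cells. Its summed level was 2637, 907 and 382 CPM in Plvap cells (wild-type, Mgp-KO, Pd-KO) against 114, 37.9 and 46.1 in capillary cells. The count is not read as a result. The Plvap cells, where genes such as Prox1 and Mmrn1 were high, helped to bring these genes past the minimum of UMIs. Among the Plvap cells, a UMI of Prox1, Lyve1 or Mmrn1 was found in 48 wild-type cells (26.8%), in 3 cells of the Mgp-KO library (5.08%) and in 13 cells of the Pd-KO library (10.3%), and in 7, 0 and 4 capillary cells. Leaving those cells out removes the list's own genes from the comparison, so it is no check of the list.

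**Figure D2:**
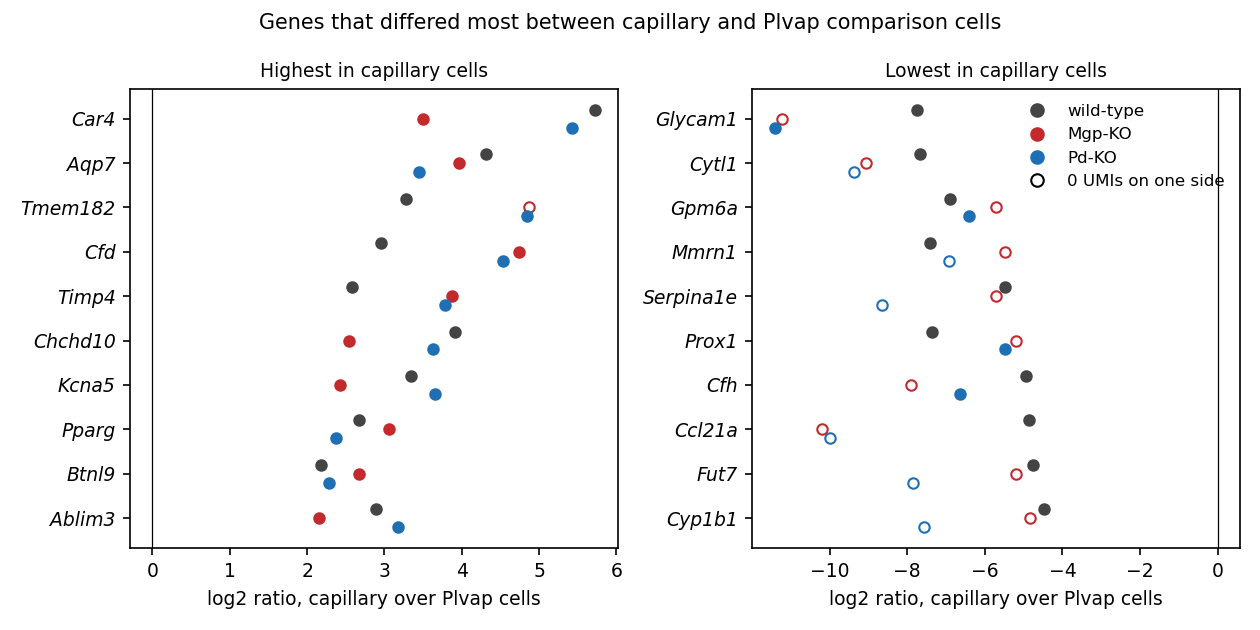
log2 ratio of the level in capillary cells over Plvap cells for the 10 highest and the 10 lowest genes, 1 point a library, open where a group held 0 UMIs. Car4 stands furthest in wild-type and Pd-KO, and of these genes Glycam1 is lowest in every library.

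In the capillary list 6 of 13 genes were higher in all 3 libraries and none lower, with medians of 1.92, 1.31 and 0.58, beside 1.06% of all genes higher and 2.25% lower. The lists were chosen with earlier results of these data known, and the capillary list holds Rbp7, a marker of the label. Its count, like those of the lipid handling and venous lists above, is therefore a description and no check of the label. The single gene called in the BMP and TGFβ list below is near the shares of all genes. Of the arterial genes, 2 of 17 were higher and 3 lower, and Sema3g, an arterial semaphorin, was at 74.9, 121 and 68.6 CPM against 26.3, 45.6 and 32.8. Of the 13 angiogenic genes 3 were higher and none lower. No gene of the endothelial identity (17 tested), VEGF and TIE (10) or Notch (10) lists was called in either direction, and in the BMP and TGFβ list 1 of 25 was lower. Kdr, the main VEGF receptor, was at 1012, 999 and 1114 CPM against 444, 514 and 867. In the matrix list 3 of 20 were higher and 2 lower, and Col4a1, a basement membrane collagen, was at 1678, 1176 and 2105 CPM against 629, 519 and 964.

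The chemokine Cxcl12 did not keep its difference across libraries. It was at 3051, 4108 and 3150 CPM in capillary cells but at 562, 1820 and 2942 CPM in Plvap cells, log2 2.44, 1.17 and 0.10. The capillary levels were thus similar and the Plvap levels far apart. The small Plvap groups and a single library a genotype limit what can be read from this.

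To compare shares of cells with a UMI at 1 depth, every cell was thinned to 1000 UMIs. Cd36 was seen in 81.5%, 91.8% and 93.3% of capillary cells (wild-type, Mgp-KO and Pd-KO), in 36.9%, 50.8% and 65.9% of Plvap cells, and in 15.3%, 7.31% and 5.93% of Pdgfra-positive progenitors, which can express Cd36 and Pparg themselves. Pparg was seen in 19.4%, 32.4% and 36.9% of capillary cells, in 1.68%, 3.39% and 10.3% of Plvap cells, and in 3.97%, 3.47% and 5.82% of progenitors. In free RNA, Cd36 was at 137, 177 and 622 CPM and Pparg at 27, 72.1 and 277 CPM, each below its level in the capillary cells of the same library. Car4 was seen in 19.7%, 21% and 33% of capillary cells, in 0.559%, 1.69% and 3.17% of Plvap cells and in 0.602%, 0.299% and 0.217% of progenitors. Without thinning, the capillary shares were 94.8%, 96.8% and 99.1% for Cd36, 54.1%, 54.3% and 67% for Pparg, and 39.6%, 34.7% and 53.9% for Car4. The order of capillary over Plvap cells held in every library for these genes. The progenitors were the deepest cells, with a median of 14825, 7307 and 9771 UMIs.

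The capillary cells were not uniform, and Plvap split them. The rule sets no limit on Plvap, and 261 (wild-type), 117 (Mgp-KO) and 257 (Pd-KO) capillary cells held at least 2 UMIs of it, while 127, 79 and 236 held none. The share without Plvap was 29.7% (25.4 to 34.3) in wild-type, 36.1% (29.7 to 42.8) in Mgp-KO and 43.7% (39.5 to 48) in Pd-KO. Depth moves this share, since cells without Plvap were shallower (median 4157, 1936 and 2764 UMIs, against 7272, 3362 and 4527). After thinning to 1000 UMIs, a Plvap UMI was left in 55%, 54.8% and 44.8% of capillary cells, so the gap between wild-type and Mgp-KO was not kept. Among cells of at least 3000 UMIs, 96 of 367 (26.2%), 18 of 92 (19.6%) and 102 of 338 (30.2%) held no Plvap UMI, so the order of wild-type and Mgp-KO turned. This split was made after its values were seen and is a description.

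Of 6691 genes, 84 (1.26%) were more than 2-fold higher in the cells without Plvap in all 3 libraries and 160 (2.39%) more than 2-fold lower. Car4 was at 662, 738 and 776 CPM without Plvap and at 73, 96.7 and 174 CPM with it, in wild-type, Mgp-KO and Pd-KO. Timp4 was at 1173, 1194 and 608 against 225, 232 and 103, and Cldn5 at 2172, 956 and 1731 against 335, 250 and 365. Aqp7 was at 369, 411 and 411 against 72.6, 128 and 176, and Tcf15 at 508, 446 and 729 against 104, 119 and 208. Of the markers of the label, Car4, Timp4 and Cldn5 were thus higher in the cells without Plvap in every library. Rbp7 was higher without Plvap in wild-type but lower in both knockouts, with 2857, 2353 and 1000 CPM against 2381, 3324 and 1410. Fabp4 was at 52652, 60259 and 51529 against 23188, 40954 and 30650, and Gpihbp1 at 3152, 3388 and 2897 against 1267, 2049 and 1580. Since Gpihbp1 chose the cells and those without Plvap were shallower, the rule itself can set part of the Gpihbp1 difference.

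Genes of other cells moved with the split as well. Cfd was at 90.1, 510 and 147 CPM without Plvap against 12.9, 36 and 14.8 with it. Dcn was at 955, 1006 and 174 CPM against 607, 81 and 120, with the widest gap in Mgp-KO, and the part of other cells' RNA in the split was not tested.

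The capillary cells with Plvap held another set of genes. Esm1, a proteoglycan of tip cells, was at 420, 297 and 308 CPM with Plvap and at 3.28, 0 and 6.75 without it. Lrg1, a secreted glycoprotein, was at 1112, 884 and 815 against 22.9, 0 and 8.09. Col13a1, a transmembrane collagen, was at 262, 306 and 289 against 0 UMIs in all 3 libraries. No fold is read from it, since the cells with Plvap alone brought it past the minimum. Ehd4, a protein of endocytic membrane traffic, was at 1186, 1349 and 1311 against 54.1, 19.8 and 55.3. Cxcl12 was at 3912, 5827 and 4510 against 773, 996 and 979, and Col15a1, a basement membrane collagen, at 589, 452 and 690 against 138, 109 and 170. Kdr was at 1158, 1230 and 1239 against 668, 674 and 934. The 2 groups of cells thus differed in the same direction in every library for each of these genes, Rbp7 excepted. Some of the genes were not particular to capillary cells with Plvap. The Plvap cells held Lrg1, a gene of the venous list, at 1427, 1512 and 971 CPM, Esm1 at 98.7, 171 and 270, and Col15a1 at 249, 217 and 520. Among capillary cells, venous Ackr1 was at 77.6, 33.7 and 41.3 CPM with Plvap and 1.64, 9.91 and 0 without it. Selp was at 68.4, 13.5 and 45 against 3.28, 24.8 and 0, so Mgp-KO differed.

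**Figure D3:**
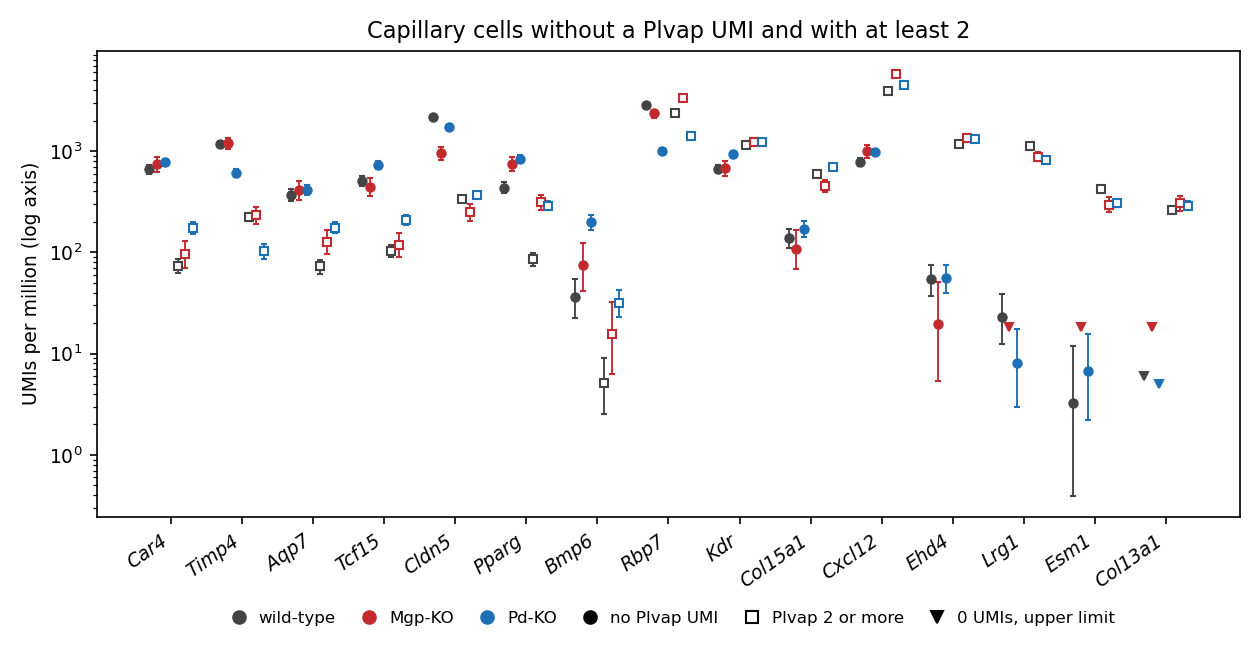
Level in CPM (log axis) of 15 genes in capillary cells without a Plvap UMI (filled circles) and with at least 2 (open squares), with exact Poisson 95% intervals, and triangles at the upper limit where 0 UMIs were counted. Car4, Timp4, Aqp7, Tcf15, Cldn5, Pparg and Bmp6 lie higher without Plvap and Cxcl12, Ehd4, Lrg1, Esm1 and Col13a1 lower.

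The genotypes were compared in the capillary cells, without replicates. Against wild-type, 195 of 5015 genes (3.89%) were more than 2-fold higher and 72 (1.44%) lower in Mgp-KO, and 790 of 6556 (12.1%) higher and 136 (2.07%) lower in Pd-KO. Both comparisons share the wild-type library. The median of all genes was shifted by 0.07 and 0.15 in log2. The genes with the highest ratios in both knockouts were long. Cmss1 was at 14.6, 216 and 519 CPM in wild-type, Mgp-KO and Pd-KO, Magi1, a junction scaffold, at 57.6, 542 and 909, and Chrm3, a muscarinic receptor, at 17, 139 and 136. All of the 10 highest genes spanned at least 100 kb and none of the 10 lowest did. Genes of at least 100 kb had a median log2 ratio of 0.51 in Mgp-KO and 1.05 in Pd-KO, against -0.04 and -0.14 for those below 10 kb, and held 7.5%, 10.8% and 15.1% of the capillary UMIs. The libraries were made with different software versions per their headers (Cell Ranger 4 for wild-type, 7.1.0 for both knockouts), and the part of this in the ratios was not tested. With the trend of gene span taken off, 73 and 228 genes were higher.

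Within the lipid handling list, 1 of 20 genes was more than 2-fold higher in Mgp-KO and 1 lower, with a median of 0.22, and in Pd-KO 1 of 22 was higher and none lower, with a median of 0.31. These counts are near or below the shares of all genes higher (3.89% and 12.1%). The higher gene was Pparg in both. It was at 180 CPM in wild-type, 451 in Mgp-KO and 503 in Pd-KO, log2 1.33 (1.12 to 1.53) and 1.48 (1.34 to 1.64), and at 0.97 and 0.63 with the span trend taken off. Pparg was higher than wild-type both without Plvap, at log2 0.78 and 0.94, and with it, at 1.87 and 1.75. Pparg in free RNA of barcodes of 10 to 100 UMIs was at 27, 72.1 and 277 CPM, in the same order. Among the adipocyte markers, Cfd was at log2 2.76 and 0.83 over wild-type and Car3, a carbonic anhydrase of adipocytes, at 1.10 and 0.32, and the part of adipocyte RNA in the lipid handling genes was not tested. Fabp4 was at log2 0.61 and 0.34, Fabp5 at 0.69 and 0.73, and Cd36 at 0.36 and 0.47 over wild-type, so none of these passed 2-fold. With the span trend taken off, Cd36 in Pd-KO was at -0.30. Aqp1, a water channel, was at 676, 284 and 608 CPM, lower only in Mgp-KO by the 2-fold limit (log2 -1.25 and -0.15). In female cells it was at -0.79 in Mgp-KO, short of that limit, and at 0.53 in Pd-KO. In male cells it was at -2.52 and -0.67.

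Timp4 and Rbp7 were lower in Pd-KO, though neither passed 2-fold over all capillary cells. Rbp7 was at log2 -0.93 (-0.99 to -0.87) over wild-type in Pd-KO and 0.36 (0.29 to 0.43) in Mgp-KO, and Timp4 at -0.65 (-0.78 to -0.51) and 0.22 (0.05 to 0.38). In cells without Plvap, Rbp7 in Pd-KO was at -1.51 (-1.64 to -1.39) and Timp4 at -0.95 (-1.12 to -0.77), and in cells with Plvap they were at -0.76 and -1.13. Car4 was at log2 0.33 (0.10 to 0.55) in Mgp-KO and 0.81 (0.66 to 0.95) in Pd-KO. In the cells without Plvap Car4 was at 0.16 (-0.12 to 0.43) and 0.23 (0.04 to 0.42), and with Plvap at 0.42 and 1.25, and the Pd-KO intervals of the groups (0.96 to 1.55 with Plvap) did not overlap, although this difference itself was not tested. Without Plvap the level of Car4 was thus close across libraries. Cldn5 was at 0.06 (-0.02 to 0.15) in Pd-KO and -0.68 (-0.84 to -0.52) in Mgp-KO. Without Plvap, Cldn5 was at -1.18 (-1.41 to -0.97) in Mgp-KO and -0.33 in Pd-KO, and with Plvap at -0.42 and 0.12. Over all capillary cells of Mgp-KO it was at -1.52 after thinning and -0.19 in male cells. Timp4 and Car4 in Mgp-KO changed sign under other settings, with Timp4 at -0.71 after thinning and Car4 at -0.48 in cells of at least 3000 UMIs.

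In the BMP and TGFβ list, no gene of the 16 with at least 100 UMIs was called in Mgp-KO. In Pd-KO 4 of 20 were more than 2-fold higher and none lower, beside 12.1% of all genes, with medians of 0.13 and 0.35. These were Bmp6, a BMP ligand, Tgfbr3, a co-receptor of TGFβ, and Acvr1 and Acvr2a, receptors of BMPs and activins. Bmp6 and Acvr1 reached 100 UMIs only with the Pd-KO library, where they were higher. The Pd-KO count is therefore not read as a result of the list, nor set against that of Mgp-KO. Bmp6 was at 12.6, 37.9 and 91.7 CPM, log2 2.84 (2.35 to 3.40) in Pd-KO, and in Mgp-KO, where it had too few UMIs to be among the 16, 1.59 (0.82 to 2.33). It spans 155 kb, and with the span trend taken off its Pd-KO ratio was 2.05. Without Plvap, Bmp6 was at 36, 74.3 and 198 CPM, and with Plvap at 5.08, 15.7 and 31.7. Tgfbr3 was at 143, 249 and 357 CPM, and Acvr1 at 20.3, 28.1 and 47.4. With the span trend taken off, Tgfbr3 was at log2 0.20, Acvr1 at 0.21 and Acvr2a at 0.74 in Pd-KO, so of the 4 genes Bmp6 alone stayed above 2-fold. In the Notch list 1 of 10 genes was lower in Pd-KO, beside 2.07% of all genes. It was Hes1, a Notch target, at log2 -1.60 (-1.89 to -1.32).

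Endothelial transcription factors were read from the identity list. Sox18 was at 271, 251 and 565 CPM, log2 -0.11 (-0.35 to 0.12) and 1.06 (0.93 to 1.19), Erg at 117, 265 and 237, and Fli1 at 184, 294 and 462. With the span trend taken off, Erg, the gene past 2-fold in Mgp-KO, was at 0.42 there. Erg at -0.42 and Fli1 at 0.53 in Pd-KO did not stay above 2-fold with the span trend taken off, while Sox18 was then at 1.28. In Pd-KO 3 of 19 identity genes were more than 2-fold higher and none lower, and in Mgp-KO 1 of 19, where 12.1% and 3.89% of all genes were higher, so both counts lie near the share of all genes. No gene of the VEGF and TIE list was called in either knockout. In the matrix list 1 of 19 genes, Mgp, was lower in each. Cell cycle genes such as Mki67 and Birc5 reached 100 UMIs through the wild-type library alone, so no count of this list is read for Mgp-KO, and in Pd-KO 0 of 11 were called. Mki67 was at 44.2, 0 and 26.1 CPM, and Top2a, a topoisomerase, at 42.3, 9.83 and 25.2. No fold is read from Mki67 for Mgp-KO, since wild-type, where it was high, brought it past the minimum. Mki67 was seen in few cells, in 4.22%, 0% and 3.15% of all capillary cells and in 2.34% (1.13 to 4.26), 0% (0 to 1.67) and 1.11% (0.409 to 2.4) after thinning, with intervals that overlap. These are shares of cells with a UMI and not of cells expressing the gene.

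**Figure D4:**
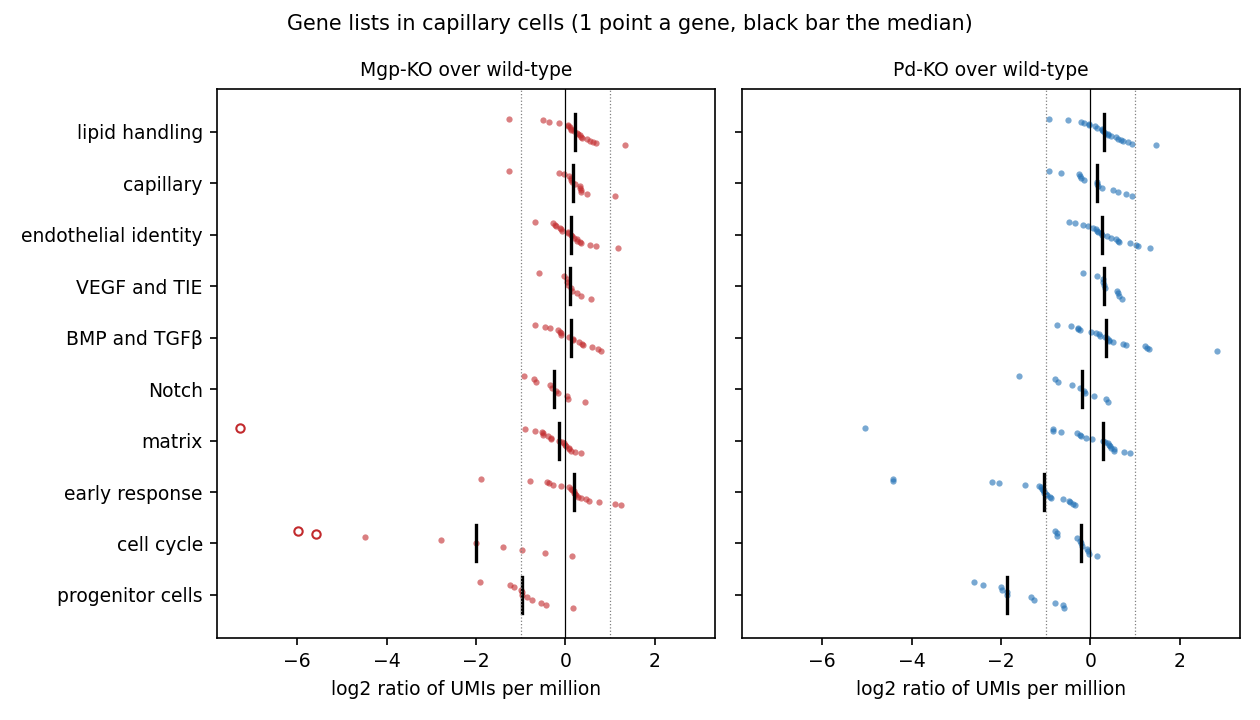
log2 ratio of each knockout over wild-type in the capillary cells, 1 point a gene, by fixed gene list, with the median as a black bar, dotted lines at 2-fold and open points where the knockout held 0 UMIs. Most lists lie near 0. The early response and progenitor cell lists lie to the left in Pd-KO, and the cell cycle points far left in Mgp-KO rest on genes counted mainly in wild-type.

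Early response genes differed between the knockouts. In Mgp-KO 2 of 20 were more than 2-fold higher than wild-type and 1 lower, with a median of 0.19, and in Pd-KO 11 of 20 were lower and none higher, with a median of -1.03. Of all genes, 3.89% were higher and 1.44% lower in Mgp-KO, and 12.1% higher and 2.07% lower in Pd-KO. Of 19 genes in the direct comparison of Pd-KO with Mgp-KO, 13 were lower and none higher, where 76 of 4858 genes (1.56%) were lower and 187 (3.85%) higher. Fos was at 642, 1083 and 321 CPM, Atf3 at 92.5, 219 and 19.9, and Hspa1a, a heat shock protein, at 326, 253 and 15.1. Mt1, a metallothionein, was at 128, 180 and 11.1. The wild-type capillary sum of the list was 98.3% of that in its barcodes of 500 to 700 UMIs, and with free RNA taken off the Pd-KO median was -0.18 and the Pd-KO ratios of Fos, Atf3 and Mt1 turned positive, since no level of them was left in wild-type. The part of handling in these levels was not tested.

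The clock genes Dbp and Nr1d1 were lower in both knockouts. Dbp was at 90.8, 7.02 and 5.76 CPM, log2 -3.56 (-5.33 to -2.45) and -3.93 (-4.91 to -3.18), and Nr1d1 at 83.8, 7.02 and 11.5. The time of day at which each library was collected is not given in the sources used here, and it cannot be told apart from genotype.

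RNA of other cells differed between libraries, with some progenitor genes higher in wild-type and the adipocyte gene Cfd higher in Mgp-KO. Of 11 adipose progenitor genes, 3 were more than 2-fold lower than wild-type in Mgp-KO capillary cells and 8 in Pd-KO, where 1.44% and 2.07% of all genes were lower. The medians were -0.97 and -1.86, and in male cells of Mgp-KO the median was 0.40. The list had summed levels of 7135, 3459 and 3026 CPM, with Col3a1 the most abundant in each. Dcn was seen in 44.5%, 7.76% and 9.44% of thinned capillary cells and Lum in 19%, 4.11% and 2.78%. Acta2, the actin of smooth muscle, was seen in 8.43%, 0.457% and 0.556%. Without thinning these shares were 96%, 15.1% and 30.2% for Dcn, 64.2%, 7.76% and 9.44% for Lum and 37.5%, 1.83% and 2.22% for Acta2. Of 7 adipocyte genes, Cfd and Car3 had enough UMIs. Both were more than 2-fold higher in Mgp-KO than wild-type while neither was called in Pd-KO (medians 1.93 and 0.57). Of all genes, 3.89% were higher in Mgp-KO and 12.1% in Pd-KO. In male cells alone Car3 was at log2 -0.18 in Mgp-KO over wild-type and Cfd at 1.79. In female cells alone Cfd was at -0.48 and Car3 at -0.49 in Pd-KO over wild-type. The summed level of the list was 140, 462 and 198 CPM in capillary cells and 166, 784 and 173 CPM in free RNA, with Car3 the most abundant gene in wild-type and Pd-KO and Cfd in Mgp-KO. Plin1, which coats the lipid droplet of adipocytes, was at 1.66, 0 and 0.886 CPM. Cfd was seen in 2.58%, 11.4% and 7.04% of thinned capillary cells and Car3 in 8.67%, 13.7% and 11.7%. Of 4 red blood cell genes, 0 were lower in Mgp-KO and 4 in Pd-KO (medians -0.37 and -2.78), with list sums of 2785, 2204 and 407 CPM. Of 5 mural cell genes, 1 was lower in Mgp-KO and 3 in Pd-KO (medians -0.35 and -1.69). The mural median in Pd-KO turned positive with free RNA taken off. Markers of leukocytes and glia were at or near 0, with C1qa and Sox10 at 0 in all 3 libraries and Ptprc in 1, 0 and 1 cells. In the wild-type library 21802 barcodes of 500 to 700 UMIs were found, against 76 and 213 in Mgp-KO and Pd-KO, and the progenitor sum in the wild-type capillary cells was 13.5% of that in them. The part of this RNA in each lower gene was not tested.

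**Figure D5:**
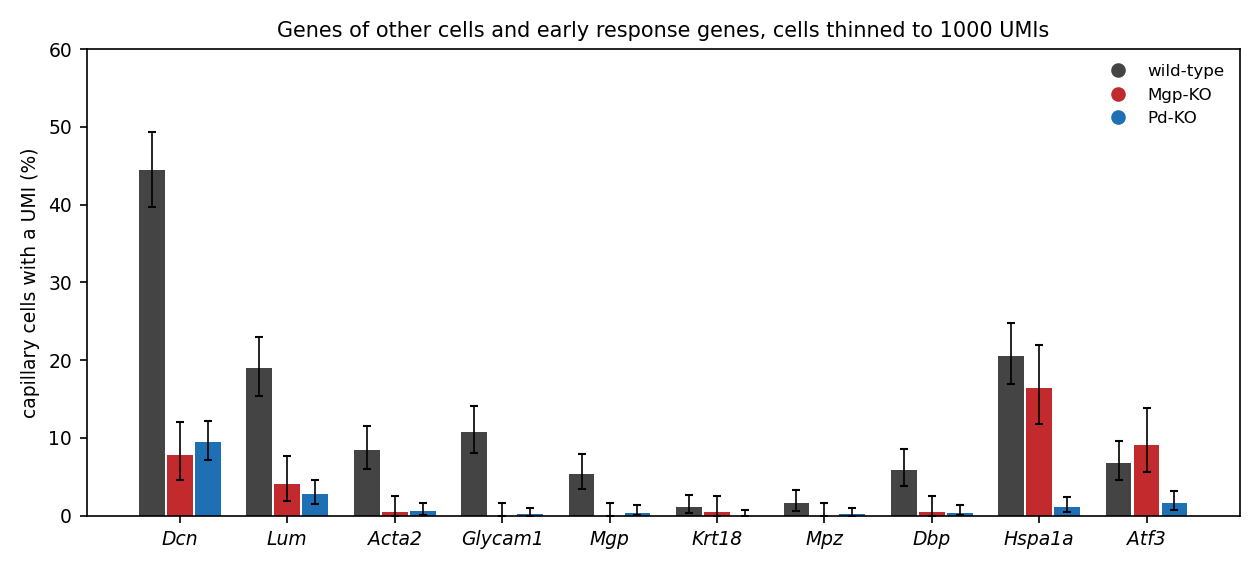
Share of capillary cells with a UMI of genes of other cells and of early response genes, after thinning to 1000 UMIs, with exact binomial 95% intervals, by library. Dcn, Lum, Acta2, Glycam1, Mgp and Dbp are highest in wild-type, and Hspa1a and Atf3 are lowest in Pd-KO.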

How the data were processed

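Each library is 1 matrix of UMI counts, which the authors deposited without normalization or removal of empty barcodes, with 32285 genes. The labels name Cell Ranger 6.1.1 and GRCm39, the paper mm10, and the file headers Cell Ranger 4 (wild-type) and 7.1.0 (both knockouts). The paper names default settings for 6.1.1, but the headers name other versions and give no setting for introns. Whether intronic reads were counted alike in all libraries is therefore not known. The libraries held 184102026 (wild-type), 93212243 (Mgp-KO) and 83942865 (Pd-KO) UMIs, and no column lacked a sample. Capillary and Plvap cells were taken by the rule in the report, and UMIs were summed over the cells of a library and divided by their total (CPM), after 0.5 counts were added for log2 ratios. For 40 duplicated symbols, the entry with most UMIs was used. Genes with at least 100 UMIs over the cells compared were used, and a log2 ratio past 1 was called.

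The members and lists were chosen with earlier results of these data known. The 22 lists held 290 genes. Besides list genes, the genes named were the 10 highest and 10 lowest between capillary and Plvap cells (ranked by the weakest library) and between knockouts and wild-type (by the weaker knockout), and 5 each between knockouts, with at least 50 CPM and without Xist and Y-linked genes; genes of the Plvap split within capillary cells were named after their values were seen. Intervals are exact (Poisson, Clopper-Pearson, conditional binomial) at 95% and cover counting error only, and the floor for 0 counts is 3 counts over the group. Shared barcodes among passing barcodes were 42 (wild-type and Mgp-KO), 39 (wild-type and Pd-KO) and 37 (both knockouts), none of them a capillary cell in both. Gene spans came from GENCODE M21 on GRCm38 for 99.6% of genes. Doublets were kept: the automatic threshold of the doublet caller marked 1, 1 and 221 barcodes (0.00881%, 0.00764% and 2.4%) in wild-type, Mgp-KO and Pd-KO, so high scores were left out as an alternative instead. The scripts were tested on simulated data. Python 3.11.15, numpy 2.4.6, scipy 1.17.1, pandas 2.3.3, scanpy 1.11.5 and matplotlib 3.10.9 were used. Alternatives covered UMI and mitochondrial limits, Gpihbp1 at 3 UMIs, thinning, doublets, sex, scaling, cell weights, free RNA, gene filters and gene span.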

Additional observations from a re-analysis of the deposited data

Results flagged for a closer look

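Genes of other cells differed between libraries in their ratio of capillary over Plvap cells, on few UMIs in Mgp-KO. Acta2 was at log2 0.26 in wild-type, 2.23 in Mgp-KO and -2.16 in Pd-KO, but the Plvap cells of Mgp-KO held 0 UMIs of it against 9 in capillary cells, so the 0.5 added counts set that value, the bound is 0.738-fold and no direction is shown. Progenitor genes were above 0 in Mgp-KO and below it in Pd-KO, with Dcn at -0.62, 1.11 and -1.38, Dpt at -0.13, 1.00 and -1.38, Lum at -0.44, 2.64 and -1.11, and Serpinf1 at -0.36, 1.31 and -1.31. In Mgp-KO, the 5 capillary cells with the most held 100% of the Acta2, 81.7% of the Dcn, 67.9% of the Dpt, 86.4% of the Lum and 72.3% of the Serpinf1 UMIs. The Mgp-KO Plvap cells held 27 UMIs of Dcn, 6 of Serpinf1, and 3 each of Dpt and Lum. These differences were not tested.

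Atf3, a stress-induced transcription factor, was at log2 1.25 over wild-type in Mgp-KO and -2.20 in Pd-KO capillary cells. With 1 library a genotype, this difference was not tested.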

How the results depend on the processing

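Of 3201 values for lists, genes and shares under 16 alternatives, 2904 moved by less than the counting interval, 273 moved further and 24, counted among values past 2-fold alone, changed sign, and smaller values that changed sign are in the other counts. The 2904 include all 207 values at a minimum of 30 UMIs per gene and all 207 at 300, filters that cannot change the ratio of a gene. The alternatives added later were chosen after seeing the data (high doublet scores, lymphatic cells, free RNA of wild-type barcodes of 500 to 700 UMIs, and 3000 UMIs for the Plvap split). The automatic doublet threshold was not run as an alternative. No paired analysis was possible because each genotype had 1 library.

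The capillary share was 58.9%, 71.8% and 65.8% (wild-type, Mgp-KO, Pd-KO) thinned to 2000 UMIs, 65.9% in wild-type males, 72.7% in Mgp-KO females, 76.5% in wild-type without lymphatic cells and 76.5% in Pd-KO from 3000 UMIs. Genes higher in capillary than Plvap cells numbered 53 thinned, 37 in females, 47 in males and 55 from 300 UMIs per gene, and genes lower 63, 70, 67 and 70, with 333 from 30 UMIs. Genes higher in Mgp-KO than wild-type numbered 31 thinned, 72 in females, 62 in males, 321 with free RNA taken off, 549 from 30 and 44 from 300 UMIs, and 73 with gene span taken off, and genes lower 25 thinned, 113 without high doublet scores, 130 with cells weighted equally, 328 from 30 and 17 from 300 UMIs. Genes higher in Pd-KO than wild-type numbered 211 thinned, 312 in females, 418 in males, 1423 from 30 and 275 from 300 UMIs, and 228 with span taken off, and genes lower 38 thinned, 320 and 70. Genes higher in Pd-KO than Mgp-KO numbered 68 thinned, 69 in females, 577 and 49 by those minimums, and 65 with span taken off, and genes lower 23 thinned, 32 in females, 50 in males, 178 and 29. Without filters on sex or free RNA, Mgp was at log2 -5.04 in Pd-KO over wild-type, and at -7.72 in females and -3.04 with free RNA taken off.

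With lymphatic cells left out, which removes their own genes from the comparison, the lymphatic list and Prox1 were at 1.00 in wild-type, 0.16 in Pd-KO and -2.08 in Mgp-KO. With free RNA taken off, in both ways, the progenitor list was at -0.81 for capillary over Plvap cells in Mgp-KO, and Acta2 at 2.08 in Mgp-KO and 3.02 in Pd-KO over wild-type, with 0 counts left in wild-type and Mgp-KO, so that the former is the ratio of library totals and no measurement and the size of the latter rests on the 0.5 added counts. In females that list was at 1.12 in Pd-KO. The mural list in Pd-KO over wild-type was at 3.02 and 0.79 by the ways of taking free RNA off. By the barcodes of 500 to 700 UMIs, Glycam1 was at 2.08 in Mgp-KO and 0.41 in Pd-KO, which are the ratios of the library totals with 0 counts left on both sides and no measurement, and the progenitor list at 0.08 in Pd-KO over wild-type. Penk was at 0.04 in Mgp-KO thinned. For Pd-KO over Mgp-KO, Hba-a1 was at 4.97 from 3000 UMIs, 3.61 thinned and 2.70 without high doublet scores, and Hbb-bt at 4.55, 3.88 and 4.77, and at 0.72 with 3 Gpihbp1 UMIs. The cause of the other changes was not tested.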

Other observations

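Hemoglobin genes Hba-a1 and Hbb-bt were among the 5 genes lowest in Pd-KO over Mgp-KO capillary cells, and their UMIs lay in a few cells. The genes highest in Pd-KO over Mgp-KO were Kcnc2, Pcp4l1, Ptchd4, AY036118 and Myo1d.

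Within capillary cells, Adh1, an alcohol dehydrogenase that oxidizes retinol, was at 134, 79.3 and 98.5 CPM in the cells without Plvap and at 10.6, 4.5 and 7.38 CPM in those with it (wild-type, Mgp-KO and Pd-KO). Piezo2, a mechanosensitive channel, was at 0, 0 and 5.4 CPM without Plvap and 79, 90 and 179 CPM with it, and Slco2a1, a prostaglandin transporter, at 11.5, 0 and 8.09 against 147, 121 and 293. Ramp3, a co-receptor of the adrenomedullin receptor, was at 0, 0 and 1.35 against 56.8, 81 and 39.9. Vwf was at 8.19, 0 and 13.5 against 104, 49.5 and 96.7, so the capillary cells with Plvap held the greater part of the Vwf of capillary cells. These genes were named after their values were seen.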
